A study of Mus musculus with 12 samples.

Results

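The cytosolic ribosomal protein genes are described here across 4 Gfi1 genotypes in granulocyte-monocyte precursors (GMPs), bone marrow progenitors of granulocytes and monocytes. Members were chosen by gene symbol alone: Rpl or Rps followed by a number, with the paralogue and X-linked forms, plus Rplp0, Rplp1, Rplp2 and Rpsa. Rpl5, pseudogenes and the Rps6k kinases were left out. The platform annotation gave 61 such symbols, and Rps4y2, which RefSeq lists as a transcribed pseudogene, was removed. This left 60 of the 14201 genes with a value: 24 of the small subunit, 33 of the large subunit and 3 of the ribosomal stalk. They were read by 174 of the 98975 probe sets that carry a single gene symbol. The number of probe sets per gene ran from 1, for 19 genes, to 10 for Rps10.

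RNA came from GMPs sorted by flow cytometry from C57BL/6 mice, and each of the 12 Affymetrix Mouse Gene 1.0 ST arrays holds 1 amplified RNA sample. There were 3 arrays from wild-type mice (WT), 3 from mice in which Gfi1 is knocked out (KO), 3 from mice carrying the common form of human GFI1 as a knock-in (wtKI) and 3 from mice carrying a variant form of human GFI1 as a knock-in (SNP). Gfi1 is a transcriptional repressor that acts in haematopoiesis, and the study asked which genes the variant regulates that may bear on acute myeloid leukaemia. The sources used here name no age or treatment. They also leave unsaid whether each array is its own mouse, so the p-values measure the variation among these samples, and that may be technical.

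Ribosomal proteins assemble with ribosomal RNA into the small subunit, which reads the message, and the large subunit, which joins amino acids. Rplp0 anchors the acidic proteins Rplp1 and Rplp2 in the stalk of the large subunit, where elongation factors dock. Most ribosomal protein messages begin with a terminal oligopyrimidine (TOP) tract, a C followed by a run of C and T, through which the kinase mTOR tunes their translation. Blood precursors are sensitive to ribosomal protein dose, and heterozygous loss of several members causes Diamond-Blackfan anaemia.

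The sequence around the annotated start of transcription shows a feature of the members that the symbols did not select. RefSeq (GRCm38.p6) gave at least 1 start window for 49 of the 60 genes. The windows below cover 15 bases before the annotated start and 15 bases from it, on the strand of the gene. Capitals mark a TOP-like run, searched on that strand only: at least 5 consecutive C or T bases that begin with C exactly at the annotated start.
Rplp0, chr5:115559452-115559481, plus strand: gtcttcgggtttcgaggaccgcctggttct
Rplp2, chr7:141447636-141447665, plus strand: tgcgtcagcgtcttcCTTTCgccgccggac
Rps6, chr4:86857353-86857382, minus strand: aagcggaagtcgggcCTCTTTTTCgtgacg
Rps10, chr17:27635230-27635259, minus strand: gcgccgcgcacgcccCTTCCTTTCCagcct
Rps18, chr17:33955651-33955680, minus strand: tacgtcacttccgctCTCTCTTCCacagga
Rpl35, chr2:39005117-39005146, minus strand: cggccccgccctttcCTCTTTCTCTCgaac
Rpl38, chr11:114668565-114668594, plus strand: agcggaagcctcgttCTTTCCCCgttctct
Rplp0 is shown because its probe sets carry the widest difference described below, and the others because they display the run in both subunits and the stalk. Of the 49 genes, some of which have more than 1 annotated start, 10 (20.4%) held a run exactly at an annotated start, against 3.01% of all 27025 genes in the same table. Within 3 bases of a start, 20 members (40.8%) held one, against 13.5% of all genes. A match is a description of the letters, and its absence from the Rplp0 window says only that they are not there at the annotated start.

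Before the results, 2 arrays have to be set apart. The median correlation of an array with the others was 0.70 for KO 1 and 0.633 for SNP 1, and between 0.836 and 0.886 for the rest. The mean of 11 GMP markers was between 9.30 and 9.86 on the log2 scale on 11 arrays and 8.44 on SNP 1. All of these markers except Fcgr3, Csf1r and Irf8 were lowest on SNP 1. Among them, Kit read 6.30 on SNP 1 (8.02 to 8.98 elsewhere) and Cd34 8.55 (10.45 to 10.78 elsewhere). On SNP 1 the mean of 14 late neutrophil genes was 10.96 (5.82 to 7.67 elsewhere), that of 9 erythroid genes 9.87 (5.95 to 7.72 elsewhere, highest on KO 1), that of 7 B-lineage genes 8.84 (5.12 to 6.21 elsewhere) and that of 6 T and NK cell genes 8.30 (5.85 to 6.64 elsewhere). The mean of 8 mast cell, basophil and eosinophil genes lay between 8.45 and 8.70 on the 3 KO arrays and wtKI 3, and between 6.94 and 7.87 on the others, and that of 6 monocyte genes between 7.86 and 9.15. The Y-linked gene Eif2s3y was low (1.72 to 2.39) on WT 3, wtKI 2 and wtKI 3 and 7.74 or higher on the others. By this gene the KO and SNP arrays are all male and the WT and wtKI groups are mixed. Every comparison but SNP minus KO thus also carries a difference in sex. The Gfi1 gene value was 5.77, 5.82 and 6.38 on the WT arrays and 6.45, 6.90 and 6.69 on the KO arrays, and where its probe sets lie against the deleted part is not given in the sources used here, so it does not check the knock-out label. Of its 5 probe sets, 10532126 read 5.08 to 6.74 in WT and KO and 2.36 to 3.83 in wtKI and SNP. Probe set 10532129 read 5.33 to 5.85 and 6.65 to 7.39, respectively. In both, the knock-in groups stood apart from the groups without a human allele. The low sides lie near or below the 5th percentiles of the arrays (4.39 to 5.65). Every probe set in the table reaches at least 6.14 on some array. Probe set 10532126 does so only on the KO arrays and WT 3, and 10532129 only on the knock-in arrays. In the remaining probe sets the knock-in groups overlap WT. The brightest, 10532125, read 9.25 to 10.02 in WT, 9.94 to 10.39 in KO, 9.74 to 9.98 in wtKI and 8.35 to 9.96 in SNP.

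A single probe set of Rplp0 separated the 4 genotypes into a low and a high pair. Probe set 10524719 read 10.38, 10.28 and 10.41 (log2 signal) on the WT arrays and 10.10, 10.22 and 10.10 on the SNP arrays. It read 5.33, 5.66 and 5.27 on the KO arrays and 5.45, 5.35 and 5.50 on the wtKI arrays. The KO and wtKI arrays are thus all low, the WT and SNP arrays are all high, and no array lies in the gap of 4.44 between 5.66 and 10.10. The group means differed by -4.94 for KO minus WT, -4.92 for wtKI minus WT, 4.70 for SNP minus wtKI and 4.72 for SNP minus KO, where the SD between replicates was 0.121. The low values are close to the floor of the arrays, whose 5th percentile over all probe sets was between 4.39 and 5.65. Every probe set in the table reaches at least 6.14 on some array, and this one does so only in WT and SNP. The probe set was singled out for this pattern, so the values are a description and carry no test.

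The other 4 probe sets of Rplp0 did not all share the split. Probe set 10524720 read 10.86, 10.89 and 11.15 in WT and 10.70, 11.01 and 10.82 in SNP, against 8.36, 9.20 and 9.26 in KO and 9.31, 8.82 and 8.17 in wtKI. The same pairs of genotypes are apart here, by a smaller gap of 1.39 between 9.31 and 10.70. Probe set 10524721 lay between 11.73 and 11.85 on all 12 arrays, so the genotypes overlap in it. Probe set 10524722 read 4.12 on KO 1 and 5.51 on SNP 1 and between 8.10 and 9.04 on the other 10 arrays, so here the split sets apart the arrays that correlate least with the rest. Probe set 10581030 read 8.80, 8.82 and 9.01 in WT and between 7.56 and 8.41 in every other group, so WT alone stands higher. Within this gene the difference of KO minus WT therefore ran from -4.94 to -0.03 over its probe sets. Which exon or transcript each probe set reads is not given in the sources used here.

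**Figure D1:**
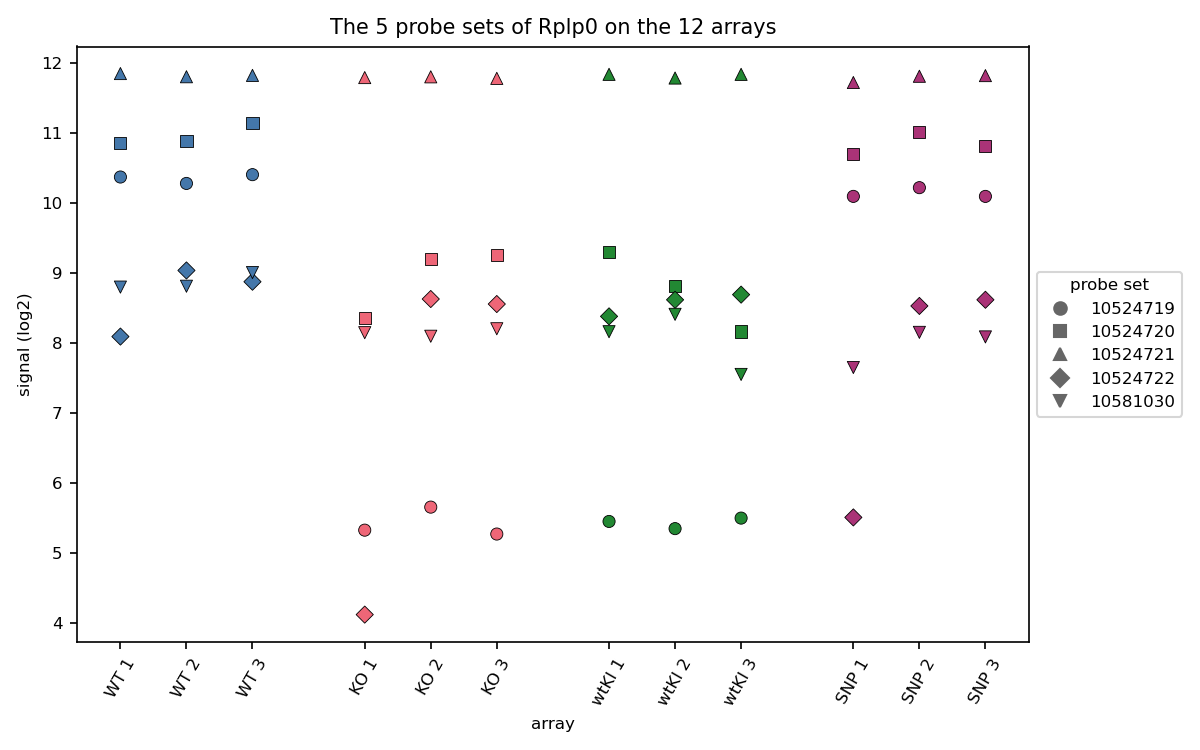
Signal (log2, vertical axis) of the 5 Rplp0 probe sets on each of the 12 arrays (horizontal axis), with a marker for each probe set and a colour for each genotype. Probe set 10524719 sits at or below 5.66 on every KO and wtKI array and at or above 10.10 on every WT and SNP array, while 10524721 stays between 11.73 and 11.85.

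Over all 98975 probe sets, 63 (0.0637%) had every KO and wtKI array below every WT and SNP array, and 2 of these were the Rplp0 probe sets just described. With a gap over 1 there were 3 (0.00303%), and the third was probe set 10524624 of Oasl2, an interferon-induced antiviral gene. Its gap between the 2 pairs of genotypes was 1.11, while its widest gap between arrays was 3.18 and did not follow genotype. The opposite order, KO and wtKI above WT and SNP, was found for 112 probe sets, none of them a member and none with a gap over 1. Rplp0, Oasl2 and Gfi1 are all on chromosome 5 in RefSeq, with 21 protein-coding genes between Rplp0 and Oasl2 and 133 between Rplp0 and Gfi1. Whether the position on this chromosome has a part in the pattern was not tested.

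The probe sets of other genes most like Rplp0 10524719 over the 12 arrays were ranked by Pearson's r, as a description of arrays that share genotype. They were probe set 10379145 of Spag5 (r = 0.933), a mitotic spindle protein, 10523918 of Mtf2 (r = 0.909), a Polycomb-associated protein, 10551936 of Nphs1 (r = 0.881), which encodes nephrin, 10433860 of Prkdc (r = 0.881), the DNA-dependent protein kinase, and 10427375 of Pde1b (r = 0.879), a cyclic nucleotide phosphodiesterase. The Mtf2 probe set averaged 7.65 in WT, 4.95 in KO, 5.62 in wtKI and 7.40 in SNP. Mtf2 also lies on chromosome 5, with 128 protein-coding genes between it and Rplp0. Between Rplp0 and Gfi1 there are 133, and those between Mtf2 and Gfi1 were not counted.

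Combining the probe sets into a gene value by median polish changed the order of the genotypes for Rplp0. The gene value was 9.18, 9.19 and 9.39 in WT, 6.70, 8.48 and 8.51 in KO, 8.39, 8.52 and 7.93 in wtKI and 8.45, 8.54 and 8.62 in SNP. WT is above all other arrays, SNP overlaps KO and wtKI, and KO 1 is lowest. KO minus WT was -1.36 ± 0.40 (SE of the limma fit, n = 3 per group), with an adjusted p of 0.698. Without KO 1 and SNP 1 it was -0.76 ± 0.19, with an adjusted p of 0.262. SNP minus wtKI was 0.26 ± 0.40 (adjusted p = 0.804), and SNP minus WT was -0.72 ± 0.40 (adjusted p = 0.366). All adjusted p-values here are from limma with Benjamini-Hochberg adjustment over the 14201 genes.

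With the plain median of the 5 probe sets in place of median polish, Rplp0 did follow the split. The medians were 10.38, 10.28 and 10.41 in WT and 10.10, 10.22 and 10.10 in SNP, which are the values of probe set 10524719 itself. They were 8.15, 8.63 and 8.56 in KO and 8.39, 8.62 and 8.17 in wtKI. On this scale Rplp0 passed the threshold of 0.05 in KO minus WT (-1.91, adjusted p = 0.00949), wtKI minus WT (-1.96, adjusted p = 0.00701), SNP minus wtKI (1.75, adjusted p = 0.0232) and SNP minus KO (1.69, adjusted p = 0.0324). The gene was pointed out for its pattern, so these calls are no independent evidence of it.

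The 2 partners of Rplp0 in the stalk did not show the split. Rplp1 had gene values of 10.36, 10.20 and 10.33 in WT, 10.35, 10.21 and 10.43 in KO, 10.21, 10.30 and 10.10 in wtKI, and 9.76, 9.86 and 10.52 in SNP. The 4 groups overlap, apart from SNP 1 and SNP 2, which are the lowest arrays. Rplp2 had 11.09, 11.06 and 11.09 in WT, 11.03, 11.04 and 10.97 in KO, 11.02, 10.96 and 10.99 in wtKI, and 10.54, 10.88 and 11.22 in SNP. The KO and wtKI arrays of Rplp2 lie just below the WT arrays, and SNP spans all of them. Neither gene passed the threshold in any comparison.

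No member gene passed the adjusted threshold in any of the 6 comparisons between genotypes by median-polished value. At most 2 of all 14201 genes did in any of them, so this does not show that the members were unchanged. With the median-polished gene values, 0 of 60 members passed the adjusted threshold in KO minus WT (0.0% of all genes), in SNP minus wtKI (0.0%), in wtKI minus WT (0.0%), in SNP minus WT (0.0%), in SNP minus KO (0.0141%) and in KO minus wtKI (0.0%). In the F-test over the 4 genotypes, 0 of 60 passed as well (0.0% of all genes). At an unadjusted p under 0.05, limma gave 2 members in KO minus WT (4.78% of all genes), 1 in SNP minus wtKI (8.88%), 4 in wtKI minus WT (3.05%), 3 in SNP minus WT (15.9%), 1 in SNP minus KO (12.6%), 1 in KO minus wtKI (4.58%) and 3 in the F-test (9.08%). Without KO 1 and SNP 1, the same counts were 2, 2, 6, 6, 2 and 4 in the order of these 6 comparisons, against 6.84%, 8.44%, 7.48%, 16.1%, 15.6% and 8.37% of all genes, and again 0 members passed the adjusted threshold. The exceptions among the alternatives were the plain median of probe sets, under which Rplp0 passed as given above, and array weights, under which Rplp0 passed in KO minus WT (-0.84, adjusted p = 0.0344 by limma) and Rpl34 in KO minus wtKI (0.64, adjusted p = 0.0475 by limma). At the level of single probe sets, 1 of 174 member probe sets passed in SNP minus wtKI (0.00303% of all probe sets), in KO minus WT (0.00303%), in wtKI minus WT (0.00202%) in SNP minus KO (0.00202%) and in the F-test (0.00404%), each time Rplp0 10524719, which had been picked for that pattern. None passed in SNP minus WT (0.0%) or KO minus wtKI (0.00606%), where 0 of the 174 were called.

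The median member lay near 0 in each comparison. KO minus WT had a median of 0.00248 over the 60 members and -0.02 over all genes, and the members ran from -1.36 (Rplp0) to 0.28 (Rps7). For SNP minus wtKI the median was -0.03 over the members and -0.02 over all genes, with 26 of 60 members above 0 (47.5% of all genes). For wtKI minus WT it was 0.00045 against -0.00660, and for KO minus wtKI -0.03 against -0.02. For SNP minus WT it was -0.03 against -0.01, with the small subunit at 0.03 and the large subunit with the stalk at -0.16. The interquartile range of the members was narrower than that of all genes, from -0.07 to 0.06 against -0.20 to 0.15 in KO minus WT, and from -0.17 to 0.04 against -0.29 to 0.22 in SNP minus wtKI.

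**Figure D2:**
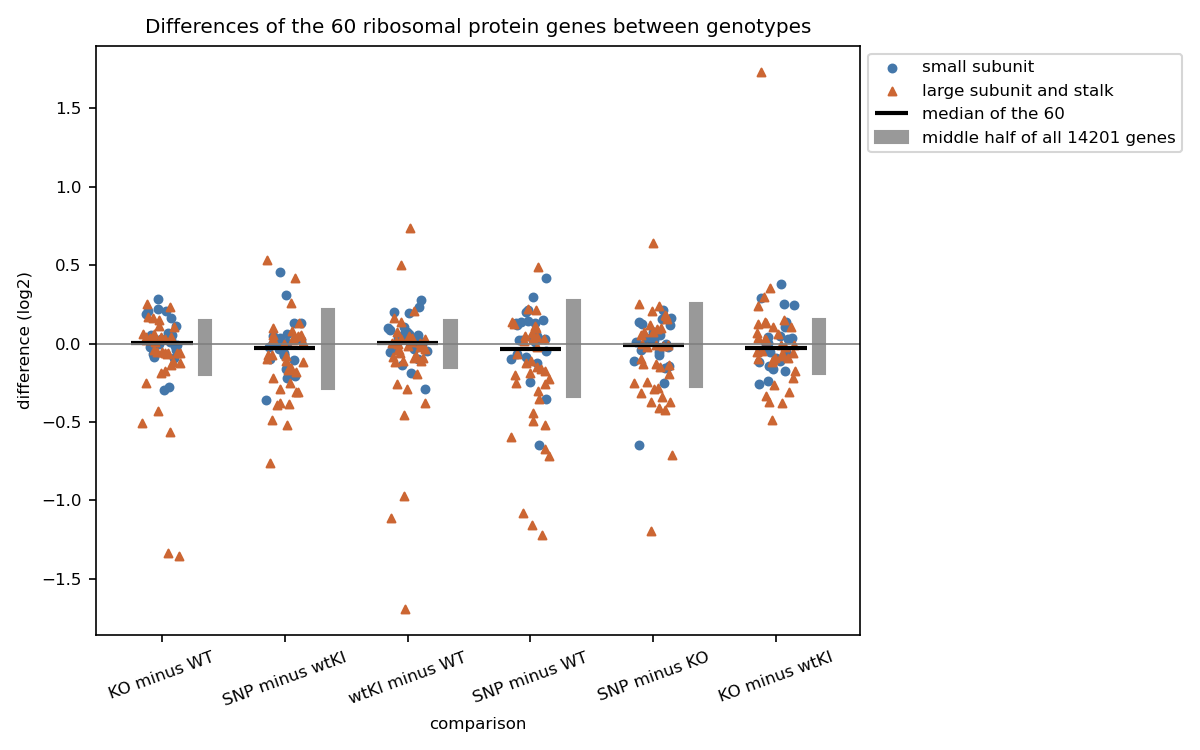
Log2 differences (vertical axis) of the 60 member genes in each of the 6 comparisons, with circles for the small subunit, triangles for the large subunit and stalk, a line at their median and a grey bar for the interquartile range of all 14201 genes. The members centre near 0 in every comparison, from a median of -0.03 to 0.00248, and none passed the adjusted threshold.

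In KO minus WT, the comparison that asks what loss of Gfi1 changes, 15 of 60 members had groups that do not overlap (11.9% of all genes), 8 higher in KO (5.74% of all genes) and 7 lower (6.13%). The 3 smallest p-values above 0 belonged to the small subunit genes Rps7 (0.28 ± 0.21), Rps9 (0.21 ± 0.16) and Rps25 (0.22 ± 0.20). Rps7 read 10.11, 10.21 and 10.28 in WT against 10.54, 10.47 and 10.43 in KO, so KO is higher on every array. Below 0 they belonged to Rplp0, to Rpl31 (-1.34 ± 0.54), which lies near the exit of the peptide tunnel, and to Rpl23 (-0.43 ± 0.26), another large subunit protein. Rpl23 read 9.42 on KO 1 and 10.12 and 10.16 on KO 2 and KO 3, and its 2 probe sets were at -0.79 and -0.08. Without KO 1 and SNP 1 its difference was -0.20 ± 0.19. Rpl31 read 6.95, 7.02 and 5.34 in WT and 4.12, 5.47 and 5.72 in KO, so the groups overlap. WT 1 and WT 2 are the highest arrays, and the 1 probe set of Rpl31 is below the 5th percentile of 4.40 on KO 1. None of these passed, with 0.698 as the smallest adjusted p.

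In SNP minus wtKI, the comparison of the variant with the common human form, 2 of 60 members did not overlap (14.6% of all genes), Rpl11 higher (7.25%) and Rpl21 lower (7.36%). The 3 smallest p-values above 0 belonged to Rps27l (0.46 ± 0.24), Rpl11 (0.42 ± 0.33), which binds the p53 inhibitor Mdm2, and Rps15a (0.31 ± 0.28). Below 0 they belonged to Rpl21 (-0.48 ± 0.17, adjusted p = 0.55 by limma), Rpl3 (-0.38 ± 0.22), which lies near the peptidyl transferase centre, and Rps2 (-0.36 ± 0.22), which lies near the entry of the message channel. Rpl3 read 10.56 on SNP 1 and 11.48 and 11.34 on SNP 2 and SNP 3. Without KO 1 and SNP 1 its difference was -0.10 ± 0.13. Rpl21 read 11.62, 11.62 and 11.58 in wtKI and 10.91, 10.97 and 11.49 in SNP. It read 11.22, 11.01 and 11.09 in WT and 11.25, 11.31 and 11.25 in KO, so wtKI is above every other array and SNP overlaps WT and KO. None passed.

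In wtKI minus WT, which sets the human knock-in against the mouse gene, 10 members did not overlap (12.6% of all genes), 6 higher (5.77%) and 4 lower (6.84%). The 3 smallest p-values above 0 were those of Rpl21 (0.50 ± 0.17), Rpl22l1 (0.74 ± 0.32) and Rps25 (0.28 ± 0.20). Below 0 they were those of Rplp0 (-0.98 ± 0.40), Rpl29 (-1.69 ± 0.72), a heparin-binding protein of the large subunit, and Rpl31 (-1.11 ± 0.54). None passed. The Rpl29 difference rests on wtKI 2 and wtKI 3 at 6.61 and 6.78, since wtKI 1 at 8.86 lies next to the WT values of 8.94, 9.03 and 9.36.

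In SNP minus WT, 14 members did not overlap (25.7% of all genes), 6 higher (12.8%) and 8 lower (12.9%). The 3 smallest p-values below 0 were those of Rps2 (-0.65 ± 0.22, adjusted p = 0.261 by limma), Rpl19 (-0.60 ± 0.22, adjusted p = 0.279 by limma) and Rpl3 (-0.50 ± 0.22). Without KO 1 and SNP 1 the Rpl3 difference was -0.21 ± 0.13. Rps2 read 8.04, 7.53 and 7.65 in WT and 6.93, 7.34 and 7.01 in SNP, so all 3 SNP arrays are lower. Rpl19, of the subunit bridge, read 6.58, 6.85 and 6.68 in WT and 6.05, 6.05 and 6.21 in SNP, without overlap. Above 0 they were those of Rps27l (0.42 ± 0.24), Rpl22l1 (0.49 ± 0.32) and Rps25 (0.29 ± 0.20). None passed.

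In SNP minus KO, 9 members did not overlap (13.9% of all genes), 6 higher in SNP (6.7%) and 3 lower (7.25%). The 3 smallest p-values above 0 were those of Rplp0 (0.64 ± 0.40), Rpl7 (0.18 ± 0.14) and Rps21 (0.16 ± 0.14), and those below 0 of Rps2 (-0.64 ± 0.22), Rpl14 (-0.37 ± 0.19) and Rpl19 (-0.41 ± 0.22). Without KO 1 and SNP 1, Rplp0 was at 0.09 ± 0.21 and Rpl14 at -0.19 ± 0.14. None passed. In KO minus wtKI, 12 members did not overlap (10.9% of all genes), 6 higher in KO (5.35%) and 6 lower (5.57%). The 3 smallest p-values above 0 were those of Rpl29 (1.73 ± 0.72), Rps7 (0.38 ± 0.21) and Rps2 (0.29 ± 0.22), and those below 0 of Rpl21 (-0.34 ± 0.17), Rpl22l1 (-0.49 ± 0.32) and Rpl23 (-0.37 ± 0.26). Without KO 1 and SNP 1, Rpl23 was at -0.14 ± 0.19. None passed. The 6 comparisons share groups, so a gene that recurs in several of them does so in part through the same arrays.

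What the members shared most was their level on 2 of the SNP arrays. Each gene value was set against its own mean over the 12 arrays, and the median of these deviations was taken over the 60 genes. On SNP 1 the median was -0.25 and 47 of 60 members were below their own mean, on SNP 3 it was 0.17 and 11 were below. On the other 10 arrays it lay between -0.03 (KO 1) and 0.07 (wtKI 1). SNP 1 was the lowest array for 33 members and SNP 3 the highest for 29. These 2 counts were not made over all genes. Over all 14201 genes, the median deviation was -0.01 on SNP 1 and 0.00 on SNP 3, with 7201 and 7069 genes below their own mean. The SD of the deviations over all genes was 0.878 on SNP 1 and between 0.291 and 0.655 on the other arrays. SNP 1 thus stood apart for genes at large as well. The median signal of an array over all probe sets was 7.32 on SNP 1, 7.37 on KO 1 and 7.38 on SNP 3, the 3 lowest, and reached 7.58.

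Both subunits took the same positions on these arrays. On SNP 1 the small subunit was at -0.22, with 20 of 24 genes below their mean, and the large subunit with the stalk at -0.30, with 27 of 36 below. On SNP 3 they were at 0.22 and 0.14, with 3 and 8 genes below. The 2 arrays belong to the same group, so they widen its spread in opposite directions. SNP 1 is also the array with the raised late neutrophil, erythroid and lymphoid genes given above, while on SNP 3 those lists lay at 7.47, 6.54, 5.93 (B-lineage) and 6.49 (T and NK cell). The part of those cell types in the low member values was not tested, and fewer cells of a type cannot be told apart from less RNA per cell. Without SNP 3 the member median of SNP minus WT was -0.16 and that of SNP minus KO -0.17, and without SNP 1 they were 0.07 and 0.08.

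**Figure D3:**
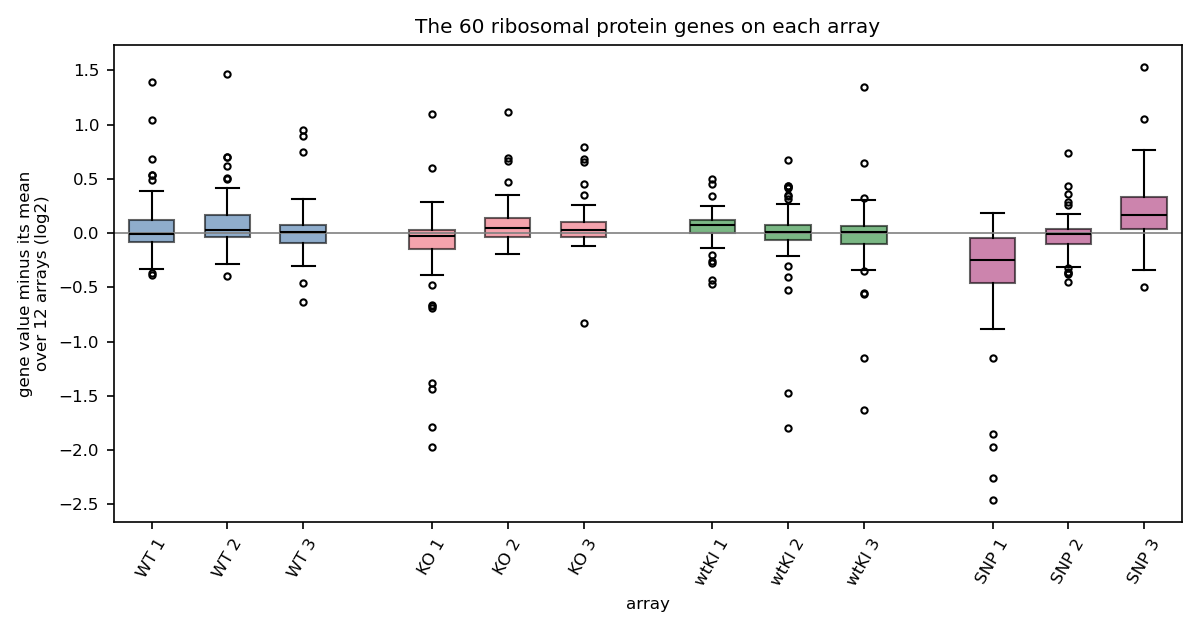
Gene value of each of the 60 members minus its own mean over the 12 arrays (log2, vertical axis), by array. Boxes span the interquartile range with the median as a line, whiskers reach to 1.5 times that range, and circles are genes beyond it. The box of SNP 1 sits lowest (median -0.25) and that of SNP 3 highest (median 0.17).

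Most members varied less across the arrays than other genes, and most were also brighter. The range over the 12 arrays had a median of 0.645 over the members and 1.17 over all genes. A range under 0.5 was found for 21 members (35%) and for 3.83% of all genes, and a range over 2 for 6 members (10%) and 18.3% of all genes. The mean over the arrays was above 10 for 40 members (66.7%) and for 2.83% of all genes. Among the 402 genes above 10 the median range was 0.619, and for the 40 members among them 0.446. Brightness depends on the probes as well as on the message, so these levels do not rank genes by abundance.

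The 3 steadiest members were Rpl38 (range 0.159), a protein linked to translation of Hox messages, Rps28 (0.198) and Rps4x (0.221). Rpl38 read 11.25, 11.26 and 11.26 in WT, 11.29, 11.27 and 11.30 in KO, 11.39, 11.27 and 11.34 in wtKI, and 11.31, 11.36 and 11.41 in SNP. All its arrays outside WT lie just above WT. The 3 widest were Rpl6 (3.99), Rpl29 (3.35) and Rpl31 (2.91). Rpl6 and Rpl31 are each read by 1 probe set. Their lowest values, 3.99 on SNP 1 and 4.12 on KO 1, lie below the 5th percentiles of these arrays (4.39 and 4.40). Rpl6, a large subunit protein, read 7.50, 6.47 and 6.28 in WT, 4.48, 7.57 and 6.50 in KO, 6.70, 4.98 and 7.80 in wtKI, and 3.99, 7.19 and 7.98 in SNP. Its low arrays are KO 1, wtKI 2 and SNP 1, a single array in each of 3 groups, and all groups overlap.

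**Figure D4:**
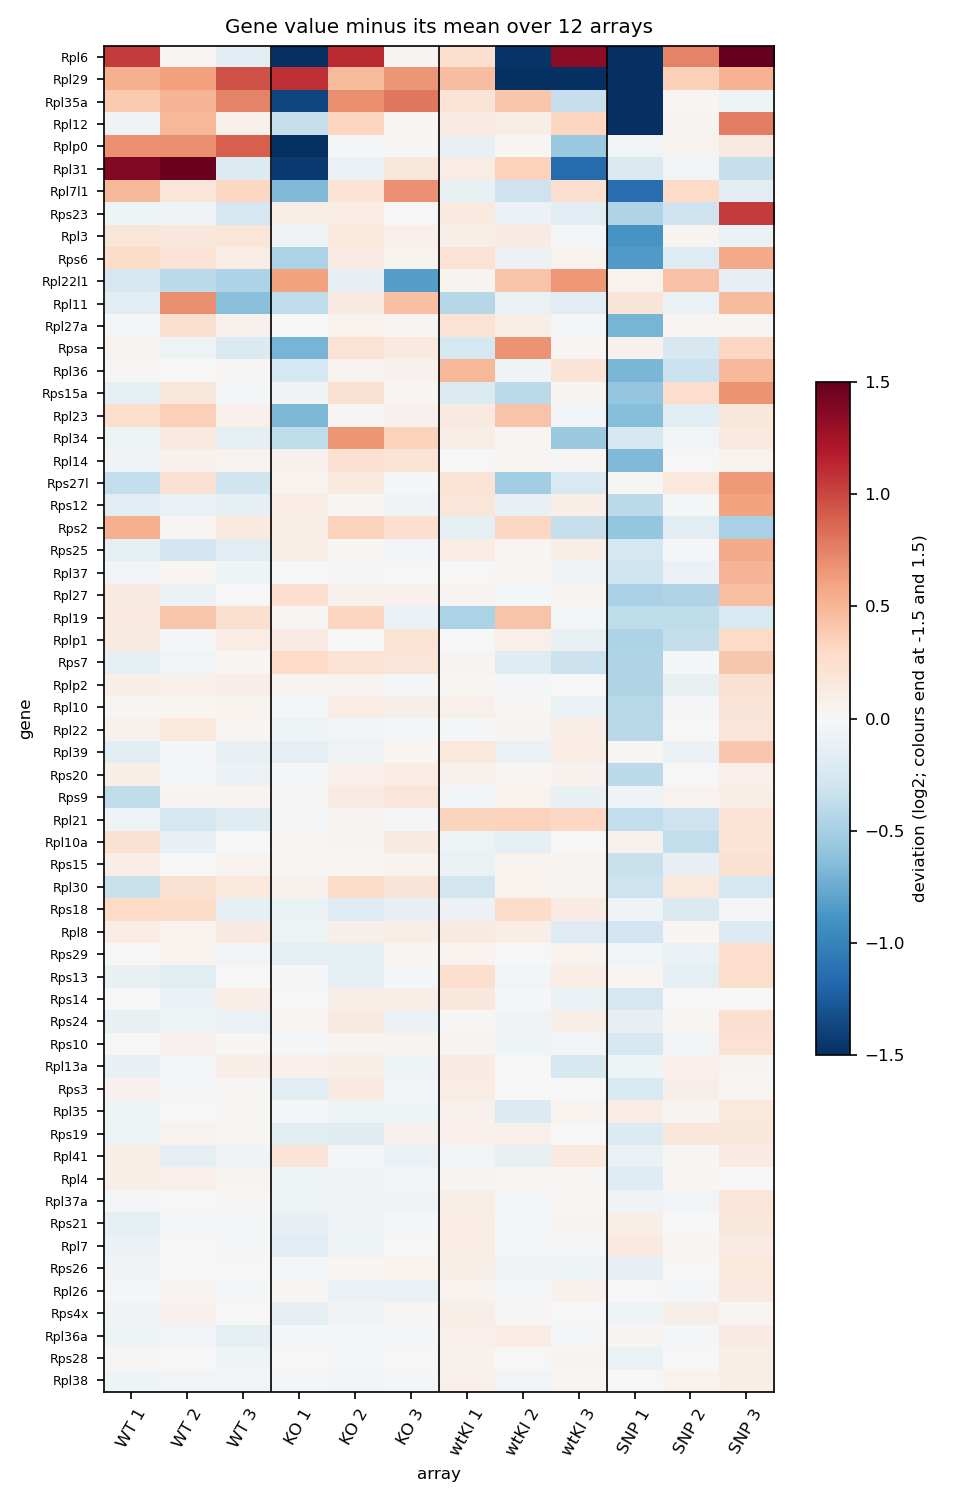
Deviation of each of the 60 member genes from its own mean (log2, colour), for the 12 arrays in columns grouped by genotype. The SNP 1 column holds the lowest value of 33 members and the SNP 3 column the highest of 29, counts that were not made over all genes. Rpl6, Rpl29 and Rpl31 show the widest ranges.

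A few member probe sets separated the arrays into a low and a high block. A gap over 2 between the blocks was found for 6 of 174 member probe sets (3.45%), against 6.36% of all probe sets. With at least 2 arrays in each block there were 4 (2.30%), against 0.832%. In each of these counts 2 are the Rplp0 probe sets 10524719 and 10524722 described above. A split that followed genotype was found for 1 member probe set, Rplp0 10524719, and for 0.0101% of all probe sets.

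Probe set 10588501 of Rpl29 read 8.33, 8.93 and 9.62 in WT and 9.55, 8.61 and 8.75 in KO. It read 8.80, 3.93 and 4.77 in wtKI and 3.32, 8.80 and 8.48 in SNP. The low block thus holds wtKI 2, wtKI 3 and SNP 1, and the gap is 3.56. The second Rpl29 probe set, 10588500, stayed between 8.74 and 9.55 on all 12 arrays. Probe set 10430674 of Rpl3 read 7.64 on wtKI 1, 7.67 on SNP 1 and 8.24 on SNP 3, and between 11.60 and 12.05 on the other 9 arrays. Its low block mixes the 2 knock-in genotypes and leaves both WT and KO high.

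In 2 more probe sets SNP 1 alone was low. It read 4.71 in probe set 10471553 of Rpl12, where the other arrays were at 7.18 or above, and 5.18 in probe set 10565803 of Rps3, where they were at 7.30 or above. Rpl12 lies at the base of the stalk, and Rps3 is a small subunit protein that also takes part in DNA repair. Just under the limit of 2 were probe set 10451479 of Rpl7l1 (gap 1.99), with SNP 1 at 6.27 and the others at 8.26 or above, and probe set 10442583 of Rps2 (gap 1.82).

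The Rps2 probe set read 11.20, 9.11 and 8.96 in wtKI and between 10.94 and 11.50 on the other 9 arrays. Its low arrays, wtKI 2 and wtKI 3, are also low in the Y-linked gene. WT 3, the third array low in that gene, read 11.23, within the high block. Probe set 10422706 of Rpl37, chosen after its values were seen, read 6.42, 6.30 and 7.38 in wtKI. Elsewhere it read between 3.16 and 5.57, near the floor. Every probe set in the table reaches at least 6.14 on some array, and this one does so only in wtKI. Its higher wtKI values are thus tied to that selection and carry no test. The other Rpl37 probe sets moved little. Over all 5, wtKI minus WT ran from -0.16 to 2.08, the latter in probe set 10422706.

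**Figure D5:**
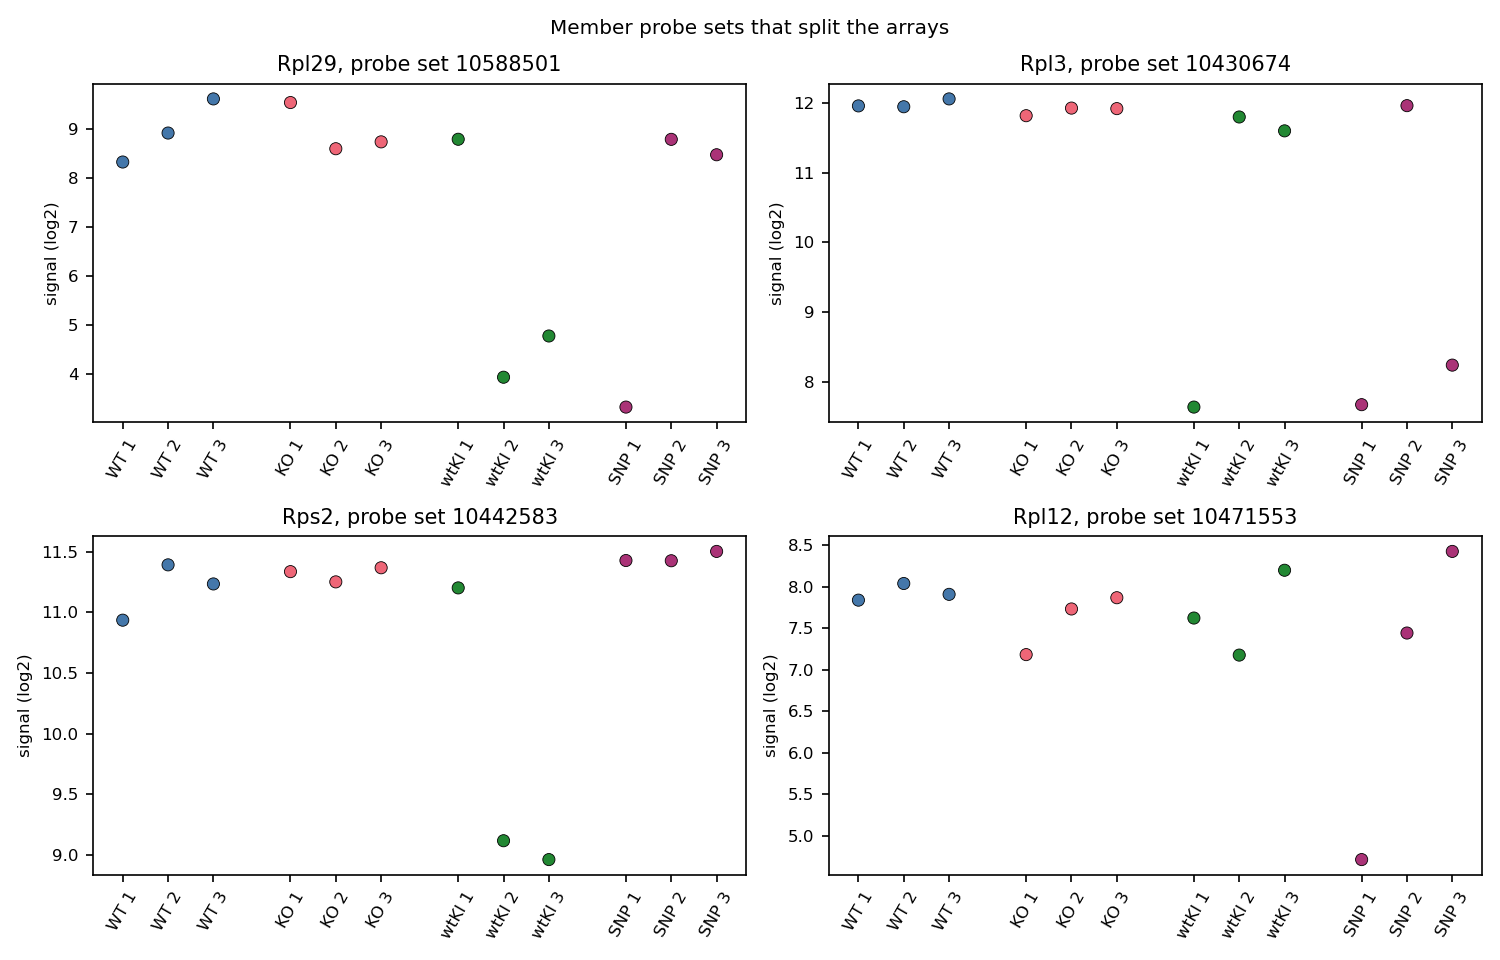
Signal (log2, vertical axis) on each of the 12 arrays for member probe sets whose arrays fall into blocks, with panels for Rpl29, Rpl3, Rps2 and Rpl12. The low block is wtKI 2, wtKI 3 and SNP 1 in Rpl29, wtKI 1, SNP 1 and SNP 3 in Rpl3, wtKI 2 and wtKI 3 in Rps2, and SNP 1 in Rpl12, so none of the 4 follows genotype.

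The differences of probe sets of the same gene were compared. Over the 41 members with at least 2 probe sets, the span between the highest and the lowest difference of a gene had a median of 0.163 in KO minus WT, 0.147 in wtKI minus WT, 0.228 in SNP minus wtKI, 0.233 in KO minus wtKI, 0.264 in SNP minus WT and 0.312 in SNP minus KO. The span was over 1 in 2, 5, 3, 6, 5 and 7 genes, respectively. Rplp0 had the widest span in SNP minus wtKI (5.72, from -1.01 to 4.70), followed by Rps2 (2.85, from -1.16 to 1.69) and Rpl37 (2.25, from -2.10 to 0.15). The -2.10 is that of Rpl37 probe set 10422706, which reaches 6.14 only in wtKI. A further 164 probe sets carry a member-type symbol together with others and were not used, and 10 symbols, among them Rpl15, Rps16 and Rps3a, occur only there. In 5 families, 11 member probe sets had identical values on all arrays, so near-identical copies can share signal.

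The paralogues, tissue-restricted or stress-linked copies of a core protein, had a value in 3 cases. Rpl22l1 read 5.93, 5.79 and 5.72 in WT, 6.79, 6.05 and 5.35 in KO, 6.22, 6.61 and 6.83 in wtKI, and 6.23, 6.62 and 6.05 in SNP. Both knock-in groups are above WT, and KO overlaps all 3 other groups. Its partner Rpl22, which is known to repress Rpl22l1, read 10.56, 10.65 and 10.52 in WT, 10.41, 10.44 and 10.46 in KO, 10.48, 10.53 and 10.59 in wtKI, and 10.08, 10.50 and 10.67 in SNP. In Rpl22 the KO arrays lie just below WT, while wtKI and SNP overlap it.

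Rps27l, a p53 target, read 8.43, 9.02 and 8.50 in WT, 8.85, 8.94 and 8.78 in KO, 8.28 and 8.57 on wtKI 2 and wtKI 3, and 8.81, 8.96 and 9.44 in SNP. On wtKI 1 it lay just under WT 2. Its groups overlap, and SNP 3 is the highest array. Rpl7l1 read 8.42, 8.11 and 8.24 in WT, 7.28, 8.14 and 8.62 in KO, 7.83, 7.63 and 8.18 in wtKI, and 6.79, 8.22 and 7.76 in SNP, with KO 1 and SNP 1 as the low arrays. Its partner Rpl7 lay between 10.98 and 11.29 on all arrays. Rps27, the partner of Rps27l, had no value and is not analysed here.

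Several members are tied to blood disease by dose. Rps14, whose loss is linked to the anaemia of the myelodysplastic syndrome with a deletion of the long arm of human chromosome 5, read 11.36, 11.26 and 11.45 in WT, 11.35, 11.43 and 11.44 in KO, 11.52, 11.32 and 11.24 in wtKI, and 11.10, 11.35 and 11.35 in SNP. Its groups overlap, with SNP 1 lowest. Rps19, the most often mutated gene in Diamond-Blackfan anaemia, read 10.68, 10.80 and 10.77 in WT, 10.59, 10.57 and 10.82 in KO, 10.82, 10.83 and 10.75 in wtKI, and 10.55, 10.92 and 10.92 in SNP. Its groups overlap too. Of 18 genes on the Diamond-Blackfan list, 14 were measured, and none passed in any comparison. Their median was 0.00 for KO minus WT, with 7 genes above 0 and 7 below (46.9% of all genes above 0). For SNP minus wtKI it was 0.02, with 10 above and 4 below (47.5% of all genes above 0). Single genes of the list lay far from these medians, among them Rpl31 (given above) and Rpl35a. Rpl35a, a large subunit protein chosen after its values were seen, read 8.37, 8.49 and 8.73 in WT, 6.60, 8.68 and 8.78 in KO, 8.18, 8.40 and 7.64 in wtKI, and 6.01, 8.01 and 7.91 in SNP. All SNP arrays are below WT, and SNP 1 and KO 1 are the lowest. SNP minus WT was -1.22 ± 0.61 (adjusted p = 0.336 by limma), and without KO 1 and SNP 1 it was -0.57 ± 0.22 (adjusted p = 0.275 by limma).

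The 4 X-linked members gave no group difference that passed. Rps4x lay between 11.45 and 11.67 and Rpl36a between 10.78 and 11.04. Rpl10 read 10.31 on SNP 1 and between 10.62 and 10.92 elsewhere, and Rpl39 lay between 10.64 and 11.22, highest on SNP 3. Of the arrays low in the Y-linked gene, WT 3 was the lowest of all 12 for Rpl36a, at 10.78, and none was the highest or lowest for the other 3 genes.

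Related gene groups are set beside the members. Fau and Rpl36al, ribosomal proteins whose symbols fall outside the pattern, had values from 10.61 to 10.87 and from 11.46 to 11.60 over the 12 arrays. Of 20 translation factors and other TOP messages, such as Eef1a1, which delivers aminoacyl-tRNA, and Npm1, a nucleolar chaperone, none passed in any comparison. Their median was -0.08 for KO minus WT (5 above 0, 15 below) and -0.10 for SNP minus wtKI (3 above, 17 below). Of 12 regulators of ribosomal protein synthesis none passed, and their medians were -0.06 and -0.16. Myc, a driver of ribosome production, was the lowest of them in SNP minus wtKI at -1.05, where SNP 1 read 6.97 and all other arrays 9.17 or above.

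The mitochondrial ribosomal proteins, which build the separate ribosome of that organelle, were the largest of these lists. The mean over 73 of these genes was 8.21, 8.16 and 8.16 in WT, 7.78, 8.24 and 8.22 in KO, 7.94, 8.13 and 7.91 in wtKI, and 7.29, 7.88 and 7.99 in SNP. The SNP arrays are below all WT arrays, and SNP 1 is the lowest of all. SNP 3 lies within the range of both KO and wtKI, while SNP 2 lies within that of KO and below every wtKI array. These means carry the scaling of the arrays as deposited. Their median difference was -0.38 for SNP minus WT (11 above 0, 62 below) and -0.22 for SNP minus wtKI (15 above, 58 below). The cytosolic members had -0.03 in both, and of all genes 49.2% and 47.5% lay above 0. No single gene of the list passed, and the difference between both lists was not tested.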

How the data were processed

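RNA from 12 samples of sorted mouse GMPs was purified with a micro-scale kit, amplified with NuGEN kits and hybridised to Affymetrix Mouse Gene 1.0 ST arrays, per the labels' protocols. The values the authors deposited are on the log2 scale, and the submitters' processing notes name RMA without version or settings. The table holds 105661 probe sets, of which the platform annotation gives 98975 a single symbol, 1703 several and 4983 none; only the first were used. Every probe set reaches at least 6.14 on some array, so the table was selected upstream. The number of arrays limits the precision.

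Gene values were made by median polish of the probe sets. Comparisons used limma 3.58.1 in R 4.3.3 (lmFit, eBayes, two-sided) on all 12 arrays with genotype as the only term, 8 residual degrees of freedom, and Benjamini-Hochberg adjustment over 14201 genes or 98975 probe sets at 0.05. The fit was tested on simulated data. Errors beside differences are standard errors, n = 3 per group. RefSeq tables (GRCm38.p6) gave biotypes, gene order and start windows; all 60 members matched by symbol.

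The members, lists and tests were chosen with earlier results of these data known. Genes named were Rplp0, its stalk partners, the paralogue pairs, Rps14, Rps19 and the X-linked members; in each comparison the 3 members with the smallest p per direction where fewer than 3 passed; the 3 widest and 3 narrowest ranges; probe sets with a gap over 2; and the 5 probe sets most correlated with Rplp0 10524719. Alternatives were other gene values (plain median, plain mean, brightest probe set), scalings, a filter leaving out the dimmest 30% of genes, variance models, a replicate block, sex as a term, only the groups compared, and arrays left out. The labels name no batch.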

Additional observations from a re-analysis of the deposited data

How the results depend on the processing

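Of 328 alternative values, 315 were labelled the same as the main value. For a count of members or probe sets that passed, this meant an equal count. For a difference, it meant a change smaller than the SD between replicates, so the sign could change. That SD was 0.107 for the member median and 0.121 for the Rplp0 probe set. Under the plain median of probe sets, 1 member (Rplp0) passed in KO minus WT, wtKI minus WT, SNP minus wtKI, SNP minus KO and the F-test. With array weights, which gave KO 2 a weight of 6.83, KO 1 0.219 and SNP 1 0.166, 1 member passed in KO minus WT (Rplp0, -0.84, adjusted p = 0.0344 by limma, among 496 genes) and 1 in KO minus wtKI (Rpl34, 0.64, adjusted p = 0.0475 by limma, among 744 genes). Median centring of the arrays moved the member median to 0.0861 in SNP minus wtKI (all genes 0.09) and 0.103 in SNP minus WT, as it moved all genes there from -0.01 to 0.12. Repeated quantile normalization gave 4.96 for the Rplp0 probe set in SNP minus wtKI.

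Leaving out each array in turn left the count of members passed at 0 in all 6 comparisons and the F-test. The member median ranged from -0.0169 to 0.0226 in KO minus WT, from -0.122 to 0.0475 in SNP minus wtKI, from -0.021 to 0.0169 in wtKI minus WT, from -0.161 (without SNP 3) to 0.0692 (without SNP 1) in SNP minus WT, from -0.168 (without SNP 3) to 0.0763 in SNP minus KO, and from -0.0393 to 0.0298 in KO minus wtKI. The Rplp0 probe set ranged from 4.66 to 4.74, and the member probe sets that passed in SNP minus wtKI from 1 to 2, where Rps2 10442583 (2.42, adjusted p = 0.0318 by limma) joined without wtKI 1.

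The arrays carry replicate numbers, but the deviations of same-numbered arrays correlated between -0.186 and 0.352, over 0.1 in 4 of 18 pairs, so the numbers were not taken as pairing. With the replicate block, 0 members passed in each comparison, and the Rplp0 probe set stayed at 4.70 in SNP minus wtKI. With sex as a term no member gene passed either, and that probe set was at 4.72. With 3 arrays per group and 2 arrays that stand apart, small differences of single members could not be called, and values near the floor of the arrays have no firm order.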
